A study of Mus musculus with 8 samples.

Results

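The S100 and annexin genes of mouse tubuloids were followed across cultures that had or had not received a pulse of the growth factor GDNF. Members were chosen by symbol, as every *S100a* or *Anxa* gene with a number, together with *S100b*, *S100z* and *S100pbp*, and this gave 28 of the 24063 gene symbols in the tables: 15 S100 genes, 12 annexin genes and *S100pbp*, whose product binds an S100 protein and is not one. The rule reads names and no measured value, though it was set with earlier results of these data known. *S100g* and *S100a7a* carry other name forms and were not members. Tubuloids are tubule-like epithelial structures that form in Matrigel when pieces of mouse kidney tubule are plated in it. The kidneys are labelled as postnatal day 7 to 10 (the methods text gives a younger range). All 8 cultures carried *Pkd2*fl/fl, Pax8rtTA, TetOCre and mTmG, that is, floxed *Pkd2* alleles, a tetracycline-dependent Cre driven through the *Pax8* promoter, which is active in renal tubule epithelium, and a membrane fluorescence reporter, and the labels give no doxycycline for them. The 4 GDNF cultures (6, 12, 17 and 22) received GDNF in growth factor medium for 24 h, the 4 control cultures (3, 7, 14 and 21) received the same medium without it, and RNA was taken from all of them on culture day 7. The labels do not tie cultures to animals, so the tests below measure the spread between these cultures, which may in part be technical.

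S100 proteins are small proteins with a pair of EF-hand calcium-binding loops. When calcium rises they open a surface that binds a target protein, and most of them work as dimers. Annexins bind acidic membrane phospholipids in the presence of calcium and take part in membrane repair, vesicle traffic and the control of inflammation. The families meet in defined complexes: S100A10 with annexin A2 at the plasma membrane, and S100A11 with annexin A1. In kidney, several members are known from tubule epithelium and from its response to injury. The question put to the data was which of these genes differed between GDNF and control cultures, and whether the short S100 transcripts and the longer annexin transcripts differed alike.

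Of the 15 S100 genes, 13 lie on chromosome 3 (chr3:90511034-93564645, GRCm38.p6), the exceptions being *S100b* on chromosome 10 and *S100z* on chromosome 13, while the annexin genes are spread over 9 chromosomes. Sequence before the start site is shown for *S100a6*, the most abundant S100 gene, and for *S100a11* and *Anxa2*, which belong to the complexes named above. Windows are from RefSeq on GRCm38.p6 and end where GENCODE places the first exon. They cover chr3:90612644-90612881 for *S100a6*, chr3:93520246-93520487 for *S100a11* and chr9:69453433-69453619 for *Anxa2*, all on the plus strand. Capitals mark matches, on either strand, to the AP-1 letters TGANTCA or the GC box letters GGGCGG.
S100a6: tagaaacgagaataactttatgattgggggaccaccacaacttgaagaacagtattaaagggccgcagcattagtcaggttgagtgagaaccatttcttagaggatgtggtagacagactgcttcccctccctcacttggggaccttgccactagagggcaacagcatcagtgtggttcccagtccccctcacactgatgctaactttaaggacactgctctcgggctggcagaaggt
S100a11: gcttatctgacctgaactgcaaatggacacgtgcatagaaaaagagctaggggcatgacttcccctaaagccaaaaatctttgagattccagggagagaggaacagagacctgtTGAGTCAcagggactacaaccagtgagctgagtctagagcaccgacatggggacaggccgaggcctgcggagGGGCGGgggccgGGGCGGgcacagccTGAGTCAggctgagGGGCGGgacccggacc
Anxa2: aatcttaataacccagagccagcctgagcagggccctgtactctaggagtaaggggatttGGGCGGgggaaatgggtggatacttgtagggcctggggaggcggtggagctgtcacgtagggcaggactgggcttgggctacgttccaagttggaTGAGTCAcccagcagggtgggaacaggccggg
The *S100a11* stretch holds 2 AP-1 matches and 3 GC boxes, the *Anxa2* stretch holds 1 of each, and the *S100a6* stretch holds neither. Over the full 250 bases before the start, an AP-1 match stood in 2 of the 10 tested S100 genes with a window (*S100a11* and *S100a16*) and in 2 of 9 annexin genes (*Anxa2* and *Anxa10*), against 7.82% of the 27025 genes with a window. The GC box was present in 3 of 10 S100 genes and 3 of 9 annexin genes, against 35.4% of genes, and the letters TATAAA in 3 of 10 and 3 of 9, against 14.3%. A gene with several start sites has several windows and counts once if any of them holds the letters, among the members as over all genes (per window, the shares were 6.75%, 32.7% and 12.4% of 32851). A match describes the sequence and is not a measured binding site.

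The libraries held between 72991721 and 97490625 transcript counts each. A read shared by several transcripts of a gene was counted in each of them, which inflates the counts of members with more than 1 listed transcript (*S100a9*, *S100a14*, *Anxa6*, *Anxa7*, *Anxa8*, *Anxa9* and *Anxa10*) in every culture. Levels of different genes were therefore compared in TPM, the authors' transcript abundance per length, for the transcript with the highest count. Cultures were compared in CPM, library-scaled counts with TMM factors. One library stood apart: control culture 3 had a TMM factor of 0.79, against 0.963 to 0.982 in the other controls and 1.07 to 1.11 in the GDNF cultures, and it was the highest of all 8 cultures for 14 of the 25 members tested (7 S100 and 7 annexin genes). Results are therefore also given without it. Markers of tubule epithelium were present in every culture (10 of 10 tested), while 8 of 9 markers of differentiated proximal tubule stayed under a mean of 1 TPM. The neutrophil markers, which matter for *S100a8* and *S100a9*, summed to 10.4 to 19.6 TPM in controls and 11.4 to 32.2 TPM after GDNF, with 7 of 9 measured markers under 1 TPM.

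Among S100 genes, *S100a6* (calcyclin) was the most abundant. Its level was 4600 ± 1120 TPM in controls and 3130 ± 393 TPM in GDNF cultures (SD, n = 4 each), and it made up between 44.5% and 54.7% of all S100 TPM in a culture. *S100a11* followed at 1950 ± 542 and 1470 ± 63.2 TPM, and *S100a10*, the partner of annexin A2, at 1540 ± 409 and 1240 ± 105 TPM (SD, n = 4 each). *S100a16* stood at 423 ± 70.5 and 357 ± 22.1 TPM. These 4 genes carried 94.5% of mean S100 TPM. The ranges over cultures of *S100a6* and *S100a11* did not overlap, nor did those of *S100a10* and *S100a16*, whereas *S100a11* overlapped with *S100a10*, and *S100a16* with *S100a1*.

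Below these came *S100a4* and *S100a13* at means of 64.8 and 54.8 TPM, with overlapping ranges, and *S100a14* at 16.6 TPM. The genes *S100a8*, *S100a3* and *S100z* had means between 1.79 and 4.44 TPM. The other 4 (*S100b*, *S100a9*, *S100a2* and *S100a5*) were under 1 TPM. *S100a2*, *S100a5* and *S100a9* did not pass the filter on low counts: they had 0 to 15, 0 to 7 and 0 to 114 counts per culture, so that 25 of the 28 members were tested.

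The annexin genes were less dominated by 1 member. *Anxa1*, which encodes a phospholipid-binding protein with anti-inflammatory action, had 796 ± 101 TPM without and 584 ± 99.2 TPM with the GDNF pulse, and *Anxa2* had 759 ± 197 and 620 ± 43.2 TPM (SD, n = 4 each). *Anxa3* (392 ± 148 and 281 ± 23.6 TPM) and *Anxa5* (292 ± 60.5 and 278 ± 9.87 TPM) were next. The ranges of neighbouring genes overlapped from *Anxa1* to *Anxa5*. *Anxa6*, with a mean of 131 TPM, lay below *Anxa5* and above *Anxa4* (62.6 TPM) without overlap. *Anxa7* followed at 37 TPM, *Anxa9*, *Anxa8*, *Anxa11* and *Anxa13* had means from 3.99 to 11.3 TPM with overlapping ranges, and *Anxa10* was lowest at 0.156 TPM. In the plot of levels, both families span more than 3 powers of 10.

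**Figure D1:**
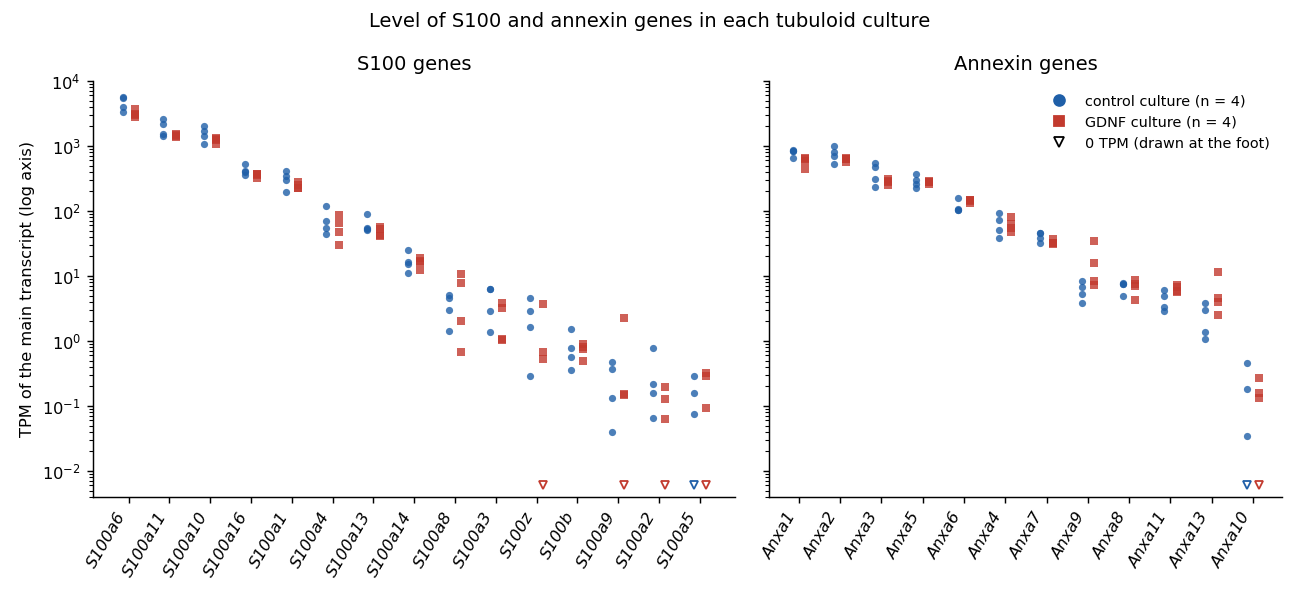
Level of each S100 gene (left) and annexin gene (right) in TPM of the main transcript on a log axis, genes ordered by their mean over all 8 cultures. Circles are the 4 control and squares the 4 GDNF cultures, and open triangles at the foot are cultures at 0 TPM. *S100a6* reaches 5680 TPM in control culture 21, and the groups overlap in TPM for most genes.

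Most tested members had lower CPM after GDNF. The log2 fold change (GDNF minus control) was below 0 for 11 of 12 tested S100 genes and 9 of 12 annexin genes. It was below 0 for 47.5% of all 16557 genes tested. Among all genes with main transcripts as long as those of the S100 genes (300 to 1661 bases), this share was 73.0%. Within the annexin length range (1238 to 2965 bases) it was 60.4%. No gene of the genome passed an adjusted p of 0.05 in edgeR's quasi-likelihood test, although 3665 had an unadjusted p under 0.05, and 1253 genes passed in DESeq2. At an unadjusted p under 0.05, 6 of 12 S100 genes and 5 of 12 annexin genes were lower after GDNF and none was higher. Among all genes within the S100 and annexin length ranges, 30.4% and 16.2% were lower at that p. The background over all genes was 12.9% lower and 9.25% higher. That balance depends on scaling: 2134 genes were lower and 1531 higher with TMM, but 850 lower and 3299 higher by library size only, where 5 S100 and 4 annexin genes were lower and 1 annexin gene higher. The medians were -0.78 for S100 genes, -0.48 for annexin genes and 0.0326 for all genes. In DESeq2, 5 S100 genes (*S100a6*, *S100a11*, *S100a13*, *S100a16* and *S100a10*) and 4 annexin genes (*Anxa1*, *Anxa7*, *Anxa3* and *Anxa2*) fell at an adjusted p under 0.05, of 17 members given an adjusted p, beside 12% that fell and 2.09% that rose of the 8889 genes given an adjusted p. In bulk RNA, fewer cells of a type and less RNA per cell cannot be told apart.

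*S100a6* read 3330, 1490, 1790 and 2360 CPM in the controls (cultures 3, 7, 14 and 21 in this order) and 1150, 991, 1320 and 1060 CPM in the GDNF cultures (6, 12, 17 and 22). Every GDNF culture lay below every control, with culture 3 the highest. In TMM-scaled CPM the level was 1.98-fold lower after GDNF (log2 fold change -0.99, SE 0.25, edgeR unadjusted p = 0.00265, adjusted p = 0.167). Without control culture 3 the log2 fold change was -0.74, and by library size only it was also -0.74. In TPM the groups overlapped, with GDNF culture 17 (3680 TPM) above control culture 7 (3320 TPM).

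*S100a11* had 955, 488, 454 and 753 CPM in the controls and 418, 370, 353 and 345 CPM in the GDNF cultures, in the same order of cultures. The groups did not overlap, though GDNF culture 6 came near control culture 14. Its log2 fold change was -0.84 (SE 0.24, edgeR adjusted p = 0.167). *S100a13*, which takes part in the release of proteins that lack a signal peptide, read 33.4, 23.4, 39.4 and 21.2 CPM in the controls and 15.6, 15.2, 20.1 and 17.7 CPM after GDNF. Here control culture 14 was highest, and the lowest control and the highest GDNF culture were close. The log2 fold change was -0.78 (SE 0.22, edgeR adjusted p = 0.167).

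*S100a16*, a broadly expressed member, gave 475, 267, 271 and 218 CPM in the controls and 211, 172, 197 and 181 CPM in the GDNF cultures. The groups were separate, with culture 21 the lowest control. Its log2 fold change was -0.69 (SE 0.23, edgeR adjusted p = 0.167), or -0.41 without control culture 3. With *S100a6*, *S100a11* and *S100a13*, this made 4 of 12 tested S100 genes whose GDNF cultures all lay below the controls in TMM-scaled CPM, beside 6.26% of all genes. In TPM, the groups overlapped for each of these 4 genes.

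*S100a10*, known as p11, read 1130, 684, 428 and 531 CPM in the controls and 464, 416, 405 and 334 CPM after GDNF. Control culture 14 lay below GDNF culture 6, so the groups overlapped. The log2 fold change was -0.78 (SE 0.28, edgeR adjusted p = 0.174) and moved to -0.44 without control culture 3. *S100a1*, a regulator of calcium handling in muscle, stood at 221, 135, 115 and 68.7 CPM in the controls and 92.8, 78.1, 70.5 and 65.4 CPM after GDNF. Control culture 21 lay within the GDNF range. Its log2 fold change was -0.81 (SE 0.30, edgeR adjusted p = 0.181), or -0.47 without control culture 3, where its unadjusted p was 0.0722.

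The other tested S100 genes did not reach an unadjusted p of 0.05. *S100a4*, which binds non-muscle myosin and is widely used as a fibroblast marker, was at 23.7 ± 9.65 CPM in controls and 14.3 ± 5.63 CPM in GDNF cultures (SD, n = 4 each), and *S100a14* at 38.7 ± 21.6 and 26.4 ± 5.04 CPM. Without control culture 14, *S100a4* moved from a log2 fold change of -0.73 to -0.44, and without control culture 3, *S100a14* moved from -0.55 to -0.09. With the kind of culture (given at the end) as a covariate, *S100a4* was at -0.76 with an unadjusted edgeR p of 0.0148. For *S100a3* the log2 fold change was -1.31 with an SE of 0.65 on 29 to 275 counts per culture, or -0.84 without control culture 3. Its gene model encloses *S100a2* on the same strand. *S100b*, an astrocyte and Schwann cell protein, had a log2 fold change of -0.49 with an SE of 0.46, which went to -0.02 without control culture 14.

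*S100z* read 0.734, 0.313, 0.0534 and 0.786 CPM in the controls and 0.604, 0.0798, 0.103 and 0 CPM after GDNF. GDNF culture 6 lay among the controls and control culture 14 among the GDNF cultures. *S100a8*, which pairs with *S100a9* to form calprotectin, the main calcium-binding complex of neutrophils, read 0.485, 0.731, 1.13 and 1.14 CPM in the controls and 0.14, 0.399, 1.53 and 2.02 CPM after GDNF. The GDNF cultures lay on both sides of the controls. *S100a9* read 0.332, 0.313, 0.0854 and 0.0238 CPM in the controls and 0.0863, 0, 1.17 and 0.0743 CPM after GDNF, and *S100a2* at most 0.208 CPM, in control culture 3. For these genes the number of reads limits what can be seen.

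*Anxa1* read 995, 561, 728 and 700 CPM in the controls and 330, 411, 448 and 437 CPM after GDNF, in that same order of cultures. No GDNF culture reached the lowest control. In TMM-scaled CPM the level was 1.84-fold lower after GDNF (log2 fold change -0.88, SE 0.20, edgeR unadjusted p = 0.00121, adjusted p = 0.167). By library size only the log2 fold change was -0.63. The *Anxa1* gene (chr19:20373434-20390671) is overlapped on the opposite strand by the lincRNA gene *1500015L24Rik*, and the kit does not mark strand, so reads of the pair cannot be told apart there.

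*Anxa7*, a membrane-fusing annexin also called synexin, read 197, 121, 167 and 158 CPM in the controls and 102, 92.8, 109 and 91.6 CPM after GDNF. The groups did not overlap. Its log2 fold change was -0.70 (SE 0.16, edgeR adjusted p = 0.167). With 2965 bases it has the longest main transcript of all members.

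*Anxa2*, which brings S100A10 to the membrane, read 965, 449, 601 and 788 CPM in the controls and 466, 384, 453 and 408 CPM after GDNF. Control culture 7 lay within the GDNF range. The log2 fold change was -0.71 (SE 0.23, edgeR adjusted p = 0.167). *Anxa3* read 658, 305, 229 and 508 CPM in the controls and 215, 223, 228 and 233 CPM after GDNF. The 4 GDNF cultures were close together and control culture 14 lay among them. Its log2 fold change was -0.92 (SE 0.29, edgeR adjusted p = 0.167), the lowest of the annexins.

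*Anxa5*, whose protein binds phosphatidylserine and serves as a stain for dying cells, read 451, 246, 284 and 369 CPM in the controls and 243, 244, 242 and 233 CPM after GDNF. The lowest control was just above the highest GDNF culture. The log2 fold change was -0.49 (SE 0.19, edgeR adjusted p = 0.19). It was -0.32 without control culture 3, and with 1 culture left out the unadjusted p stayed under 0.05 in 3 of 8 fits and reached 0.0649. *Anxa1*, *Anxa7* and *Anxa5* were the 3 of 12 annexin genes with separate groups in TMM-scaled CPM, beside the 6.26% of all genes given above. In TPM, the groups overlapped for each of these 3 genes.

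The remaining annexins did not reach an unadjusted p of 0.05. *Anxa6*, which has a duplicated annexin core, was at 417 ± 74.9 CPM in controls and 380 ± 10.4 CPM after GDNF (SD, n = 4 each), and its log2 fold change of -0.13 became 0.09 when counts were scaled by library size only. *Anxa4* and *Anxa8* had log2 fold changes of -0.46 and -0.43, or -0.23 and -0.22 without control culture 3. *Anxa9* and *Anxa13*, an epithelial annexin, were at 1.05 (SE 0.51) and 0.79 (SE 0.61), with the highest value of each in GDNF culture 6, without which they were at 0.34 and 0.11. With the kind of culture as a covariate, *Anxa9* was at 0.88 and *Anxa13* at 0.92, with unadjusted edgeR p of 0.00915 and 0.0474, and 7 annexin and 7 S100 genes were past an unadjusted p of 0.05, as were 3974 of all genes. *Anxa11* was at 0.17. *Anxa10* had at most 100 counts in a culture.

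*S100pbp* was the only member with an unadjusted p under 0.05 and a higher level. It read 4.83, 6.44, 5.51 and 5.55 CPM in the controls and 7.1, 7.92, 7.99 and 7.31 CPM after GDNF. All GDNF cultures were above all controls, as for 6.99% of all genes. The log2 fold change was 0.44 (SE 0.18, edgeR adjusted p = 0.201). With 1 culture left out it lay between 0.38 and 0.52, and its unadjusted p stayed under 0.05 in 2 of 8 fits. By library size only it was 0.65, and with a length trend per culture (described below) 0.63, both at an unadjusted p under 0.05.

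**Figure D2:**
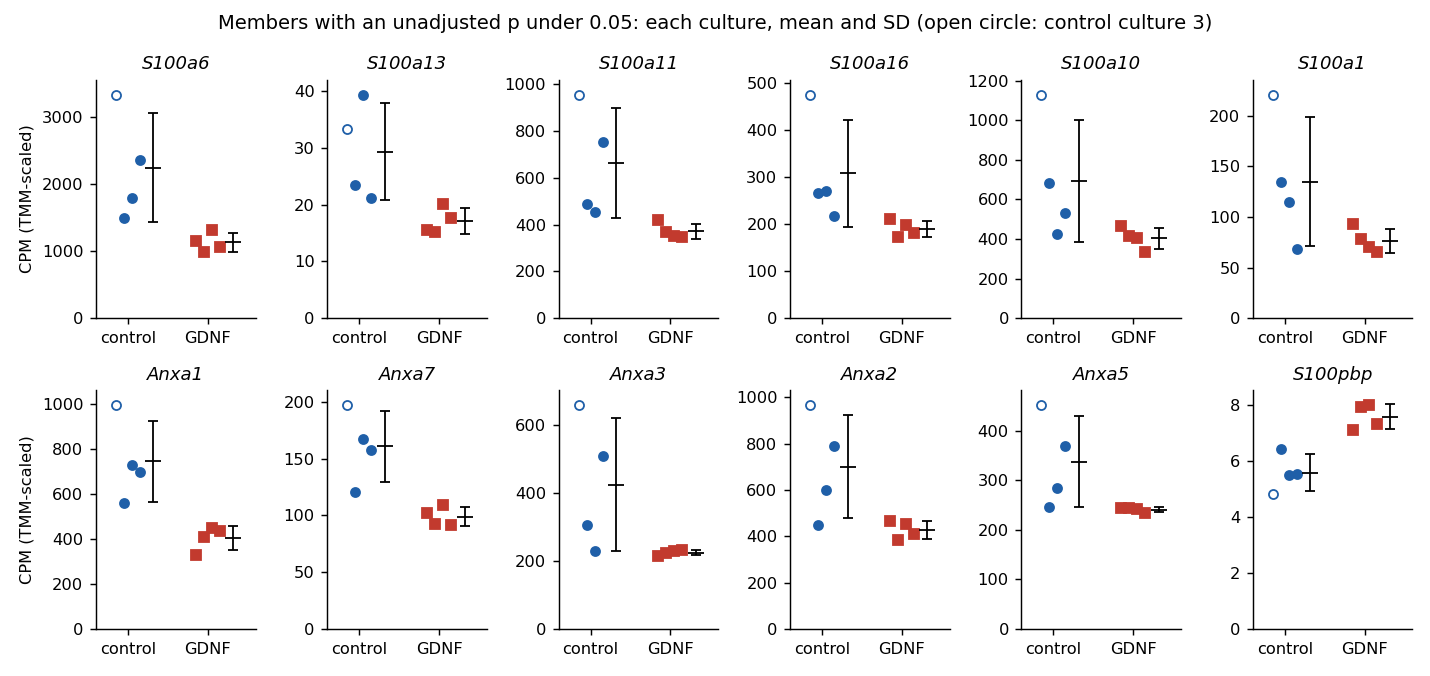
CPM (TMM-scaled) of the 12 members with an unadjusted p under 0.05 in each culture. Circles are control and squares GDNF cultures, the open circle is control culture 3, and the black marks give mean and SD (n = 4). Axes start at 0. Control culture 3 is the top value in 10 of the 12 panels, and in the *S100pbp* panel the GDNF cultures are the higher ones.

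The transcripts of the families differ in length. Main S100 transcripts run from 300 to 1661 bases with a median of 615 over the 15 genes, annexin transcripts from 1238 to 2965 bases with a median of 1846.5, and the median over all genes is 2437. Fold changes of all genes also followed length. The median log2 fold change was -0.48 for the 1224 genes of over 500 and up to 1000 bases, of which 37.8% were lower at an unadjusted p under 0.05. It was -0.32 from 1000 to 1500 bases, -0.20 from 1500 to 2000 bases and 0.34 above 5000 bases, but 0.24 up to 500 bases. Among the 3797 genes within the length range of the S100 genes the median was -0.37, and among the 6661 within the annexin range -0.13.

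With a trend on transcript length fitted in each culture as an offset, the S100 median was -0.41 and the annexin median -0.32, so that their difference went from -0.30 to -0.09. In that fit, 3 S100 genes were lower at an unadjusted p under 0.05: *S100a6* at -0.63, *S100a11* at -0.51 and *S100a16* at -0.36. *S100a10*, *S100a1* and *S100a13* were no longer past that limit, at -0.40, -0.43 and -0.42. Among annexins, *Anxa1* at -0.61, *Anxa7* at -0.70, *Anxa3* at -0.70 and *Anxa2* at -0.46 were lower, and *Anxa9* at 1.16 was higher. The background lower in that fit was 10.1% of all genes. The offset did not bring every length class to 0. Genes of over 500 and up to 1000 bases, with 6 of the tested S100 genes among them, kept a median of -0.15.

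**Figure D3:**
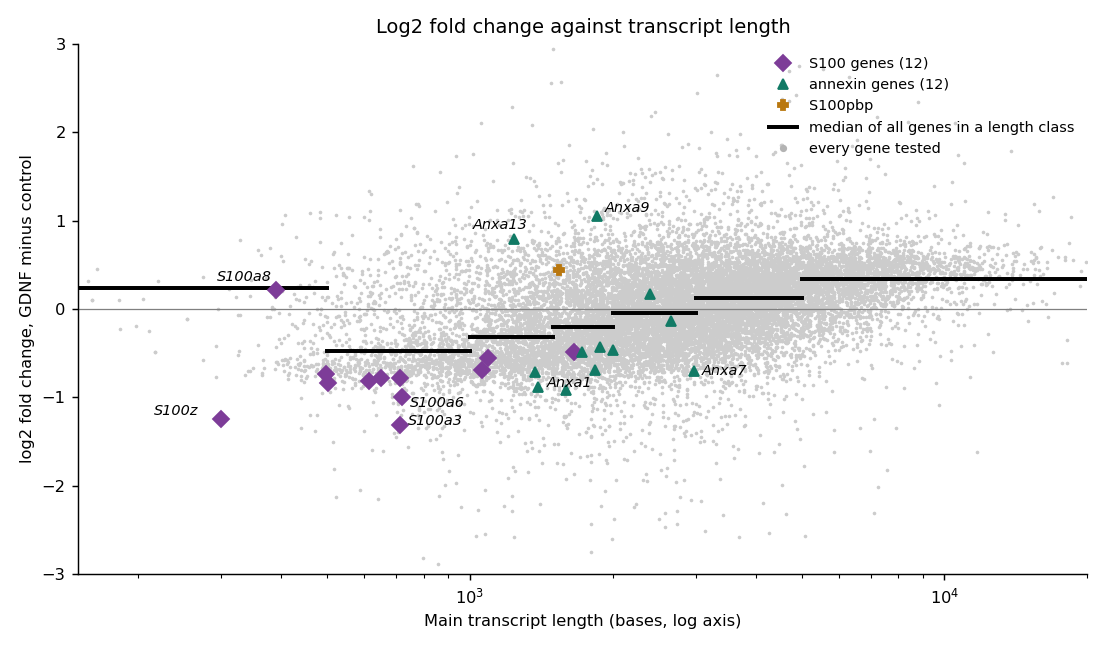
Log2 fold change (GDNF minus control) of every gene tested against main transcript length on a log axis. Grey points are genes, black bars the median of all genes in each of 7 length classes, diamonds S100 genes, triangles annexin genes and the cross *S100pbp*. Most S100 genes sit between 499 and 1095 bases and below the bar of their class, at a class median of -0.48 for over 500 to 1000 bases.

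Control culture 3 and length were also handled in 1 fit, an alternative chosen after seeing the data. Leaving out culture 3 alone gave medians of -0.64 for S100 genes and -0.27 for annexin genes, with 5 and 4 genes lower at an unadjusted p under 0.05, beside 8.18% of all genes. With the length trend in addition, the medians were -0.44 and -0.20, and 1 S100 gene (*S100a6*, -0.53) and 2 annexin genes (*Anxa1*, -0.55, and *Anxa7*, -0.60) were lower, beside 5.85% of all genes. *Anxa13*, at 1.48, and *S100pbp*, at 0.51, were then higher. The log2 fold changes of *S100a6*, *Anxa1* and *Anxa7* were thus below 0 at an unadjusted p under 0.05 in each of these 4 fits.

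**Figure D4:**
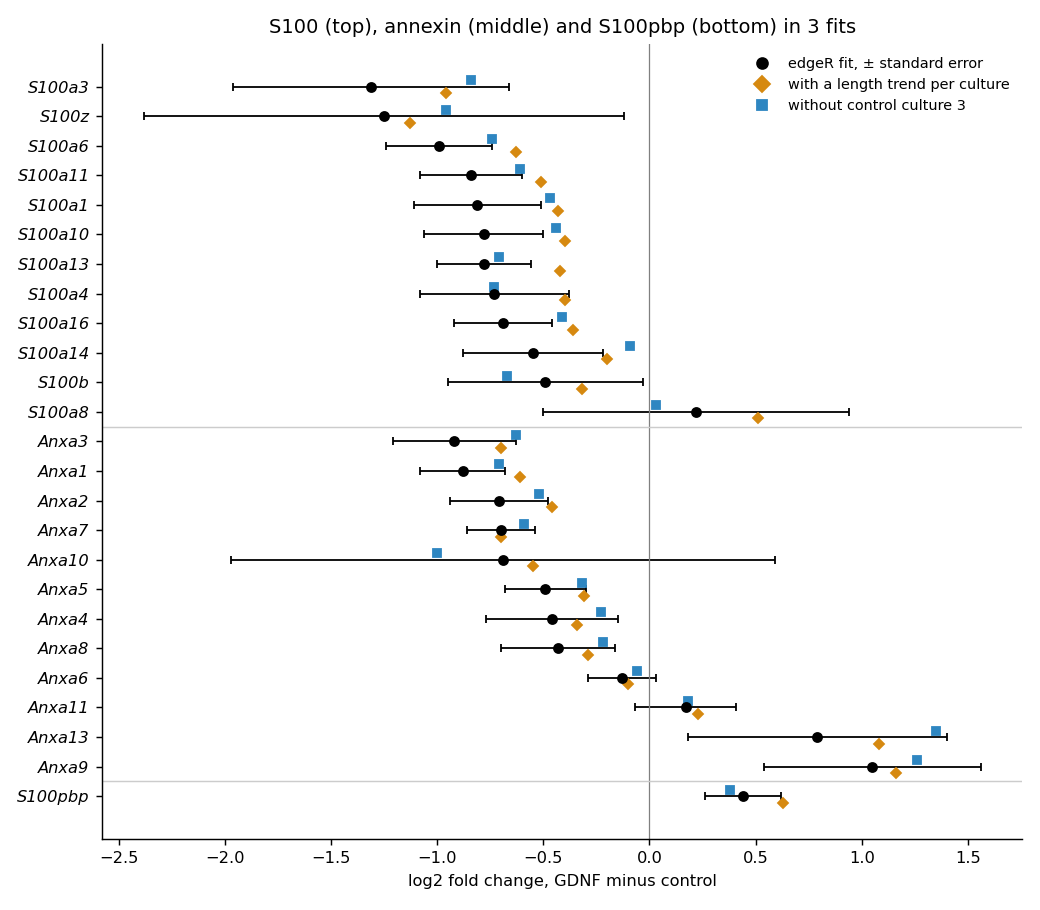
Log2 fold change (GDNF minus control) of the 25 tested members, S100 genes above, annexin genes in the middle and *S100pbp* at the foot. Black circles with bars are the edgeR fit and its standard error, diamonds the fit with a length trend per culture, and squares the fit without control culture 3. For *S100a6* the 3 values are -0.99, -0.63 and -0.74.

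Summed over the family, S100 RNA was 6240, 3137, 3161 and 4009 CPM in the controls and 2391, 2076, 2427 and 2046 CPM after GDNF, with cultures ordered as before. Annexin RNA summed to 3924, 2137, 2444 and 3153 CPM in the controls and 1914, 1870, 1932 and 1868 CPM after GDNF. Both sums were below the lowest control in all GDNF cultures, and the GDNF cultures were much closer to each other (SD 202 and 32 CPM) than the controls (SD 1460 and 796 CPM). The ratio of the S100 to the annexin sum, which does not depend on library scaling, was 1.59, 1.47, 1.29 and 1.27 in the controls and 1.25, 1.11, 1.26 and 1.10 after GDNF. The groups were separate by a small margin, with GDNF culture 17 next to control culture 21.

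In TPM, the S100 sum was 8995 ± 1800 in controls and 6572 ± 394 after GDNF, without overlap, and the annexin sum 2482 ± 513 and 2036 ± 116, with overlap (SD, n = 4 each). The share of counts from all other genes of up to 1000 bases moved the same way: 16.5%, 13.7%, 13.3% and 11.2% in the controls and 11.7%, 10.2%, 10.5% and 9.53% after GDNF, with GDNF culture 6 above control culture 21. Its part in the S100 sums was not tested.

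**Figure D5:**
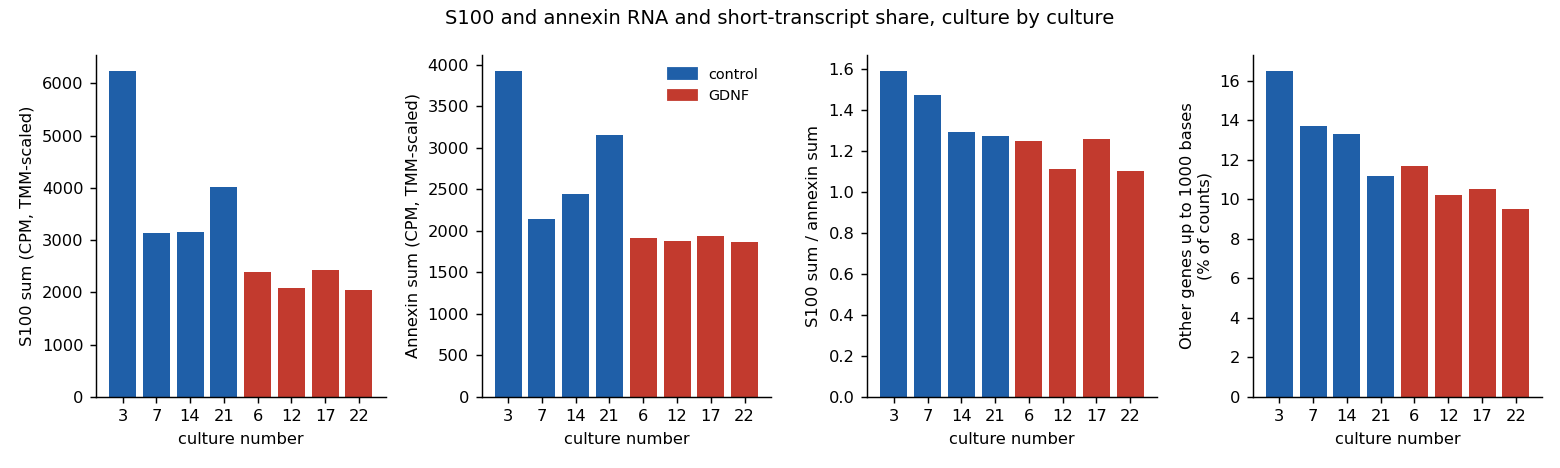
Sum of S100 CPM, sum of annexin CPM, their ratio, and the percentage of counts from other genes of up to 1000 bases, 1 bar per culture (blue control, red GDNF). Control culture 3 has the tallest bar in each panel, with 6240 CPM for S100 genes and 16.5% for short genes.

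Cell type markers moved between cultures as well. The summed CPM of 10 tubule epithelium markers was 3234, 1295, 565 and 3489 in the controls and 1758, 1247, 1071 and 1043 after GDNF. Culture 3 and culture 21, the cultures with the highest S100 and annexin sums, had the highest epithelial sums. Control culture 14 had the lowest epithelial sum, at an S100 sum of 3161 CPM. *Krt8* and *Krt18* had the highest control means of this list, at 680 and 681 CPM. Of its 10 genes, 5 had a log2 fold change below 0 and 5 above 0, with a median of -0.12. Within this list, *Krt8* and *Cldn4* were lower after GDNF at an unadjusted p under 0.05 (log2 fold changes -1.45 and -1.15), beside 12.9% of all genes. Neither stayed under that p without control culture 3, with the length trend or by library size only. The 9 stromal markers summed to 776, 1802, 4745 and 1706 CPM in the controls and 645, 2706, 3199 and 2154 CPM after GDNF. Of the 9, 6 had a log2 fold change below 0 and 3 above 0, with a median of -0.16. Only *Lum*, at -1.30, had an unadjusted p under 0.05. The part of cell makeup in the S100 and annexin levels was not tested.

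Members whose proteins form complexes were set side by side over the 8 cultures. For *Anxa2* and *S100a10*, log2 CPM correlated with Pearson's r = 0.723 (exact permutation test, two-sided, p = 0.0388, adjusted over 2 pairs 0.0388) and Spearman's rho = 0.643 (exact permutation p = 0.0962, adjusted 0.0962). Without control cultures 3 and 21, the cultures farthest from the median of *Anxa2*, r was 0.15 (exact permutation p = 0.719, 6 cultures). Leaving out extremes narrows the range of *Anxa2*, which by itself can lower r, so the source of the relation stays undecided. The 8 cultures include both groups, and a difference between the groups enters r. For *Anxa1* and *S100a11* the groups were separate in both genes, so that no r over all cultures is given. The relation within groups was not tested. Culture 3 was the highest control for both genes, whereas GDNF culture 6 was the lowest GDNF culture for *Anxa1* (330 CPM) and the highest for *S100a11* (418 CPM). The pair *S100a8* and *S100a9* was not computed because *S100a9* failed the filter.

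Partners and targets of these proteins formed a list of 22 genes, of which 20 were tested. After GDNF, 7 were lower at an unadjusted p under 0.05 and none was higher, beside 12.9% of all genes lower, and the median log2 fold change was -0.30. *Cacybp* and *Sugt1*, both targets of S100A6, were at -0.65 and -0.61. *Plgrkt*, a plasminogen receptor, was at -0.52 and *Plau*, which encodes urokinase and cleaves plasminogen, at -1.55. *Pdcd6*, a calcium sensor that binds annexins A7 and A11, was at -0.67, *Bsg*, a receptor for S100A9, at -0.77, and *Pla2g4a*, the phospholipase A2 that annexin A1 holds back, at -0.50. With 1 culture left out, *Plau* stayed under the p limit in 3 of 8 fits, with log2 fold changes from -1.86 to -0.87. *Pla2g4a* stayed under it in 7 of 8 fits, and the rest of these 7 genes in 8 of 8. *Plat*, the tissue plasminogen activator, was at -0.35 and *Ahnak*, a scaffold bound by S100A10 and annexin A2, at -0.35, both above the p limit. The receptors *Ager* and *Tlr4* were at 0.55 and -0.26, also above it, and *Fpr2* and *Trpv5* failed the filter. None of the 20 passed an adjusted p of 0.05 in edgeR, and 6 fell in DESeq2, beside the 12% of genes with an adjusted p given above. By library size only, 5 were lower and 3 higher at an unadjusted p under 0.05.

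Cultures were put into 2 kinds by whether *Xist* or the sum of 4 Y-linked genes had the higher TPM. *Xist* was the higher in controls 3 and 7 and in GDNF cultures 6 and 12, and Y-linked RNA in the others, which balanced the kinds over the groups. The kinds were not clean: control culture 3 had 12.5 TPM of *Xist*, against 52.7 to 68 TPM in the other *Xist* cultures, and 1.5 TPM of Y-linked RNA, and GDNF culture 6 had 6.46 TPM of Y-linked RNA. *S100a6* had a log2 fold change of -1.06 in the *Xist* cultures and -0.80 in the others, and *Anxa7* -0.66 and -0.70. *S100a14* had -0.99 and 0.13. In the test of the difference between kinds (edgeR interaction term), no member had an unadjusted p under 0.05, and the smallest adjusted p among members was 1.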

How the data were processed

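RNA-Seq was available for 4 GDNF and 4 control tubuloid cultures, grouped by the treatment labels. Per the labels, poly-A selected RNA went into SMART-Seq v4 libraries, and the submitters' processing notes name STAR, featureCounts, DESeq2 and mm10 (GRCm38) without versions. Strand handling is not given in the sources used here. The authors deposited whole-number counts for 33068 RefSeq transcripts without normalization. The deposited FPKM values are counts divided by transcript length and library total and served only to obtain lengths, which were whole (within 0.01 bases) for 100% of 212212 detected values. The deposited TPM values were used for levels, for the transcript of each gene with the highest mean count.

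Sums of counts per symbol entered edgeR 4.0.16 (R 4.3.3) with filterByExpr, TMM, glmQLFit and a two-sided glmQLFTest, and p-values of 16557 genes were adjusted after Benjamini and Hochberg (threshold 0.05). As standard error served the absolute log2 fold change divided by the square root of F. Totals of 72991721 to 97490625 counts make counting error small beside the spread between cultures (biological coefficient of variation 36.8%), except for members with few counts. Alternatives were limma-voom (limma 3.58.1) with sample weights, DESeq2 1.42.0, other scalings and filters, 1 transcript per gene, the kind of culture as covariate, a spline of transcript length per culture (5 degrees of freedom) as offset, and leaving out each culture. Combining the length trend with leaving out control culture 3 was chosen after seeing the data. Pairs were tested by exact permutation with log2 CPM (prior count 1) in SciPy 1.17.1. The edgeR, DESeq2 and limma steps were tested on simulated counts.

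Positions and windows before start sites are RefSeq's on GRCm38.p6. All 28 members matched the gene table and 22 had a window. *S100a10*, *S100a14*, *S100a2*, *Anxa3*, *Anxa6* and *Anxa13* had none. Gene values in every culture are given for members with an unadjusted p under 0.05, the 4 most abundant of each family by TPM, members of known pairs and members with a culture far from its group. Those of partner and marker lists are given past the same p and for the gene highest in TPM. The members and lists were chosen with earlier results of these data known. Overlapping gene models make *S100a2* and *S100a3*, *Anxa1* and *1500015L24Rik*, *Anxa8* and *A630023A22Rik*, and *S100b* and *Dip2a* uncertain where they overlap. One gene of the list of other calcium-binding proteins is not reported here on its own.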

Additional observations from a re-analysis of the deposited data

Results flagged for a closer look

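In 4 of the 56 groups of 4 cultures examined (28 members, 2 groups each), 1 culture lay far from the other 3 by Dixon's criterion, where chance alone gives about 2.8. *S100a9* was at 1.17 CPM in GDNF culture 17 and between 0 and 0.0863 CPM in the other GDNF cultures. *S100z* was at 0.604 CPM in GDNF culture 6 and between 0 and 0.103 CPM in the others. *S100a2* was at 0.208 CPM in control culture 3, against 0.0119 to 0.0427 CPM in the other controls. *Anxa5* was at 233 CPM in GDNF culture 22, against 242 to 244 CPM in its group otherwise, so here the distance is small in size and the 3 other values are very close. The first 3 rest on few reads, with at most 114 counts for *S100a9*, 66 for *S100z* and 15 for *S100a2* in any culture.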

How the results depend on the processing

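No paired analysis was possible because the groups share no culture numbers. No gene passed an adjusted p of 0.05 in edgeR under any alternative, nor in limma-voom, while the number at an unadjusted p under 0.05 ranged from 1776 to 4149 over these fits; DESeq2 called 1253 genes, and 2286 at an adjusted p of 0.1. With the length trend, S100 genes at an unadjusted p under 0.05 went from 6 to 3, the S100 median from -0.78 to -0.41 and the difference of the medians from -0.30 to -0.09. With the length trend and without control culture 3, these were 1 S100 gene, a median of -0.44, 3 annexin genes (2 lower, 1 higher) and a difference of -0.25. The cause was not tested. Leaving out 1 culture at a time gave 4 to 8 S100 genes (4 without GDNF culture 22), 4 to 7 annexin genes, S100 medians from -0.89 to -0.64, annexin medians from -0.60 to -0.27 (the latter without control culture 3) and differences from -0.41 to -0.23. Scaling by library size only moved the median of all genes from 0.0326 to 0.25, and gave medians of -0.53 and -0.23 for the families. The r of *Anxa2* and *S100a10* was 0.15 without control cultures 3 and 21. Signs turned for *Anxa10* (0.57 in limma-voom, -1.21 to 0.47 with 1 culture left out, the latter without control culture 14), *S100a8* (-0.16 in limma-voom, -0.23 with the kind of culture, -0.34 to 0.59 with 1 culture left out, below 0 without GDNF culture 17, at -0.04, or 22), *Anxa6* (0.09 by library size only) and *S100a14* (0.10 with the length trend and without control culture 3). Of the values for single members under alternatives, 446 kept direction and side of the threshold, 8 turned, 9 passed it in DESeq2, and 8 kept direction in DESeq2 with no adjusted p.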

Other observations

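Other calcium-binding proteins were taken as a list of 18 genes, of which 15 were tested. *Calm2* and *Calm3*, which encode the calcium sensor calmodulin, were lower after GDNF at an unadjusted p under 0.05. *Calm2* was at 586 ± 110 CPM in controls and 386 ± 30.4 CPM after GDNF, and *Calm3* at 68.2 ± 15.4 and 41.7 ± 2.64 CPM (SD, n = 4 each). *Calm2*, the highest of the list in TPM, had 720 TPM without and 632 TPM with the pulse. Their log2 fold changes were -0.60 and -0.71 (edgeR adjusted p = 0.167 for both), and -0.32 and -0.62 with the length trend. *Sri*, which encodes the penta-EF-hand protein sorcin, and *Cpne3*, a copine, were at -0.49 and -0.35, also at an unadjusted p under 0.05. With 1 culture left out, *Sri* stayed under that p in 6 of 8 fits and *Cpne3* in 2 of 8. None of the list was higher at that p, beside 12.9% of all genes lower and 9.25% higher. The list median was -0.24. The copines *Cpne1*, *Cpne2* and *Cpne8* were at -0.07, 0.00 and -0.11. *Cpne4*, *Cpne6* and *Cpne7* were at 0.95, 1.30 and 0.42, and *Cpne5* and *Cpne9* at -1.62 and -0.24, all above an unadjusted p of 0.05. Of these, *Cpne4*, *Cpne5* and *Cpne9* had at most 81 counts in a culture. *Calb1*, the calbindin of distal tubule, was at 13.2 ± 11.8 and 24.8 ± 28.6 CPM (SD, n = 4 each), *S100g*, the small calbindin, at 8.49 ± 6.31 and 5.53 ± 1.78 CPM, and *Calb2* and *Pvalb* had no counts.

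Counts of the other marker lists at an unadjusted p under 0.05 stand beside 22.1% of all genes in either direction. Of 8 markers of injured tubule, *Spp1* (osteopontin), the highest of the list (16100 and 13700 TPM in controls and GDNF cultures), had a log2 fold change of -0.67, and 0 of 4 tested proximal tubule markers and 0 of 7 tested macrophage markers passed. *Slc5a2* was the highest proximal tubule marker, at 6.52 and 11.2 TPM. *Lyz2* was the highest macrophage marker, at 1.85 and 11.4 TPM, with single cultures from 0.446 to 35 TPM. With 1 culture left out, its log2 fold change lay between 0.48 and 2.87. Its largest unadjusted edgeR p in those fits was 0.659, without GDNF culture 17. *Krt13* was at -0.80 among 6 tested genes of stratified epithelium, and *Camp* at -1.38 among 3 tested neutrophil genes, of which *Ltf* was highest at 8.22 and 16.8 TPM. The values of *Spp1*, *Krt13* and *Camp* were not under that p without control culture 3 or with the length trend. Of 6 tested endothelial genes, 4 had a log2 fold change below 0 and 2 above 0, with a median of -0.37. The 2 were *Tek* at 2.69, on 0 to 177 counts per culture, and *Flt1* at 0.81, both under that p. With 1 culture left out, *Tek* stayed under it in 4 of 8 fits and *Flt1* in 8 of 8. *Emcn* was highest at 16.8 and 19.7 TPM. Schwann cell markers gave 0 of 5, with *Sox10* at 0 counts and *Mbp* highest at 4.39 and 4.90 TPM.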
